A study of Mus musculus with 2 samples.

Results

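The 38 genes described here encode proteins that act when a cell enters mitosis, segregates its chromosomes and divides. They were given as a list of symbols, and each symbol matched 1 row of the 31053 genes in both count tables. By role they comprise 8 genes of CDK1, its cyclins and its direct regulators, 7 of chromosome structure and the proliferation antigen, 9 of mitotic kinases and the spindle checkpoint, 2 of the anaphase-promoting complex, 6 of the spindle and 6 of cytokinesis.

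Entry into mitosis is driven by the kinase CDK1 bound to cyclin A or cyclin B. The anaphase-promoting complex then destroys the cyclins and releases the sister chromatids, after which the midzone of the spindle directs a ring of actin and myosin to split the cell. Transcripts of these genes are low in resting cells and accumulate in G2 and M phase, where the MuvB complex with B-MYB and FOXM1 acts at their promoters. In resting cells the same promoters are held silent by DREAM, which contains MuvB together with a protein of the Rb family. In the adult mammary gland a receptor-positive luminal cell, here called hormone-sensing, is seldom found in division and signals to neighbouring receptor-negative cells, among which are the milk-producing and progenitor cells.

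Luminal mammary cells of FVB/NJ mice aged 3.5 months were profiled one by one with 3′ RNA sequencing in droplets. Cells of the WT library carried the Sox9-GFP reporter without an oncogene. Cells of the C3-TAg library carried that reporter and the C3-TAg transgene, in which regulatory sequence of the rat C3(1) prostatein gene drives the early region of simian virus 40, whose large T antigen binds p53 and the proteins of the Rb family. Both groups therefore share the strain, the age, the reporter and the luminal sort, and the sources used here give neither the number of mice per library nor the sort gate. With 1 library for each genotype, no difference could be checked against replicates, no test across samples was possible, and every interval below is a 95% interval of counting error only.

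The WT library held 8993 barcodes and 91133082 unique molecular identifiers (UMIs, each standing for 1 captured transcript molecule). The C3-TAg library held 9575 barcodes and 91932121 UMIs. After removal of poor barcodes and called doublets, 7046 WT cells with a median of 10296 UMIs and 7914 C3-TAg cells with a median of 8684 UMIs were kept, and 17 barcode sequences occurred among the kept cells of both libraries. Hormone-sensing cells were those with at least 5 UMIs of Areg, Pgr, Esr1 and Cited1 together per 10000 UMIs. The other cells were divided by the share of their UMIs from Csn1s1, Csn1s2a, Csn2 and Csn3, at least 0.5% in casein-high cells and less in casein-low cells. This gave 2720 hormone-sensing, 3750 casein-high and 576 casein-low cells in WT, and 2027, 2491 and 3396 cells in C3-TAg. Markers outside the rule were in keeping with the class name in WT, where the prolactin receptor gene Prlr was at 2500 CPM in hormone-sensing and 71.6 CPM in casein-high cells. CPM is the count of a gene scaled to 1000000 UMIs of the class, and since 3′ UMIs count molecules it is not divided by gene length. Tnfsf11, the RANK ligand gene, and Greb1, an estrogen target, were low even in WT hormone-sensing cells, at 3.48 and 0.674 CPM. In C3-TAg hormone-sensing cells Prlr was at 1503 CPM, and a subset of that class had little of it, as described further on. Cells carrying stromal or immune markers made up 4.17% of the WT casein-low cells and at most 0.589% of every other class of either library, and the levels below differed by less than counting error without them.

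The shared regulation of these genes can be read in part from their promoters. RefSeq promoters of GRCm38.p6, spanning 250 bases before to 50 bases after the start, matched 31 of the 38 genes; Ccna2, Cdc25c, Smc4, Esco2, Aurkb, Pbk and Tpx2 had no entry. The CCAAT box, bound by NF-Y, was searched as CCAAT on both strands, and the cell cycle homology region, bound by MuvB, as TTTGAA or TTTAAA on both strands. At least 1 CCAAT lay in 26 of the 31 promoters (83.9%), against 41.1% of the promoters of 27025 genes. At least 2 lay in 18 of them (58.1%), against 13.3%. TTTGAA lay in 23 (74.2%) against 20.2%, whereas TTTAAA lay in 4 (12.9%) against 14.9%. A CCAAT together with TTTGAA or TTTAAA was found in 22 (71.0%) against 12.2%. Birc5, Mad2l1, Nusap1, Anln and Cep55 had no CCAAT in this window, and Cks2, Cdc25b, Bub1, Mad2l1, Nusap1 and Diaph3 had neither TTTGAA nor TTTAAA. Such matches are letters in a window and were not tested for binding.

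The stretch just before the RefSeq start is shown for 5 genes, 5′ to 3′ on the strand of the gene. Capitals mark each CCAAT, each TTTGAA and each TTTAAA on either strand, so that a motif of the other strand appears as its reverse complement. Ccnb2, Mki67 and Top2a show both motifs. Hmmr shows repeated CCAAT boxes, and its 1 TTTGAA lies in the promoter window but outside the stretch shown. Cks2, a gene with one of the smallest differences between the libraries, shows CCAAT boxes alone.
Ccnb2, chr9:70421555-70421729, minus strand: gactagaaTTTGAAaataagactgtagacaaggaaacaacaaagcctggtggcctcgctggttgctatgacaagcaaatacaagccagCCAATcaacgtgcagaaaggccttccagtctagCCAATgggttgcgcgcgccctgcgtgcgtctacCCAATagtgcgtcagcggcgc
Mki67, chr7:135716380-135716554, minus strand: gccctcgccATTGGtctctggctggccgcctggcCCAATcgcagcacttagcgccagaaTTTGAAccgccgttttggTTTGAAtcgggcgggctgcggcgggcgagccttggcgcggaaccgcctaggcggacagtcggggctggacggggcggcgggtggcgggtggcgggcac
Top2a, chr11:99024190-99024364, minus strand: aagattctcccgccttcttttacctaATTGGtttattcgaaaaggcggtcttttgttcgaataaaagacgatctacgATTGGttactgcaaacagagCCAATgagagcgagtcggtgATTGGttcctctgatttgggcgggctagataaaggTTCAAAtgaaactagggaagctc
Hmmr, chr11:40733438-40733612, minus strand: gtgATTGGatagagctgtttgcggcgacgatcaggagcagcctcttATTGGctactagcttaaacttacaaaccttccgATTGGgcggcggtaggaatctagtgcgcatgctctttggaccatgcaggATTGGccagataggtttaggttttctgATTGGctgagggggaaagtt
Cks2, chr13:51645057-51645231, plus strand: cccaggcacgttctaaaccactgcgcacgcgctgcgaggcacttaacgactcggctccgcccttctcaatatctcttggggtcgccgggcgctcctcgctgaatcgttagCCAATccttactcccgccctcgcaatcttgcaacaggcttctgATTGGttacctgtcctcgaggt
Ccnb2 has 3 CCAAT boxes in the stretch shown and Hmmr has 5. None of these stretches overlaps an exon of the GENCODE M21 annotation.

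The summed level of the 38 genes was far higher in C3-TAg than in WT in every class. In WT the sum was 129.7 CPM in hormone-sensing cells, 190.8 CPM in casein-high cells and 231.5 CPM in casein-low cells. In C3-TAg it was 1187, 2084 and 3942 CPM in the same order. The intervals of these 6 sums do not overlap, and the widest relative to its value runs from 218.0 to 245.5 CPM in WT casein-low cells.

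In WT cells most of these UMIs came from 3 genes that resting cells also express. Cks1b, which encodes a small subunit of cyclin-dependent kinases, was at 32.1, 84.5 and 74.8 CPM in hormone-sensing, casein-high and casein-low cells. Its paralog Cks2 was at 42.5, 44.3 and 57.5 CPM. Smc4, a core subunit of condensin, was at 23.6, 25.4 and 40.9 CPM. Together they gave 75.7%, 80.9% and 74.8% of the UMIs of all 38 genes in the respective classes. The other 35 genes lay between 0 and 6.53 CPM in every WT class, and 12, 16 and 19 of the 38 genes reached 1 CPM. In C3-TAg the same 3 genes gave 28.7%, 24.9% and 24.6% of the UMIs, and all 38 genes reached 1 CPM in each class. How reads shared by Cks1b and its retrocopies were counted is not stated, so its level is uncertain to that extent.

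**Figure D1:**
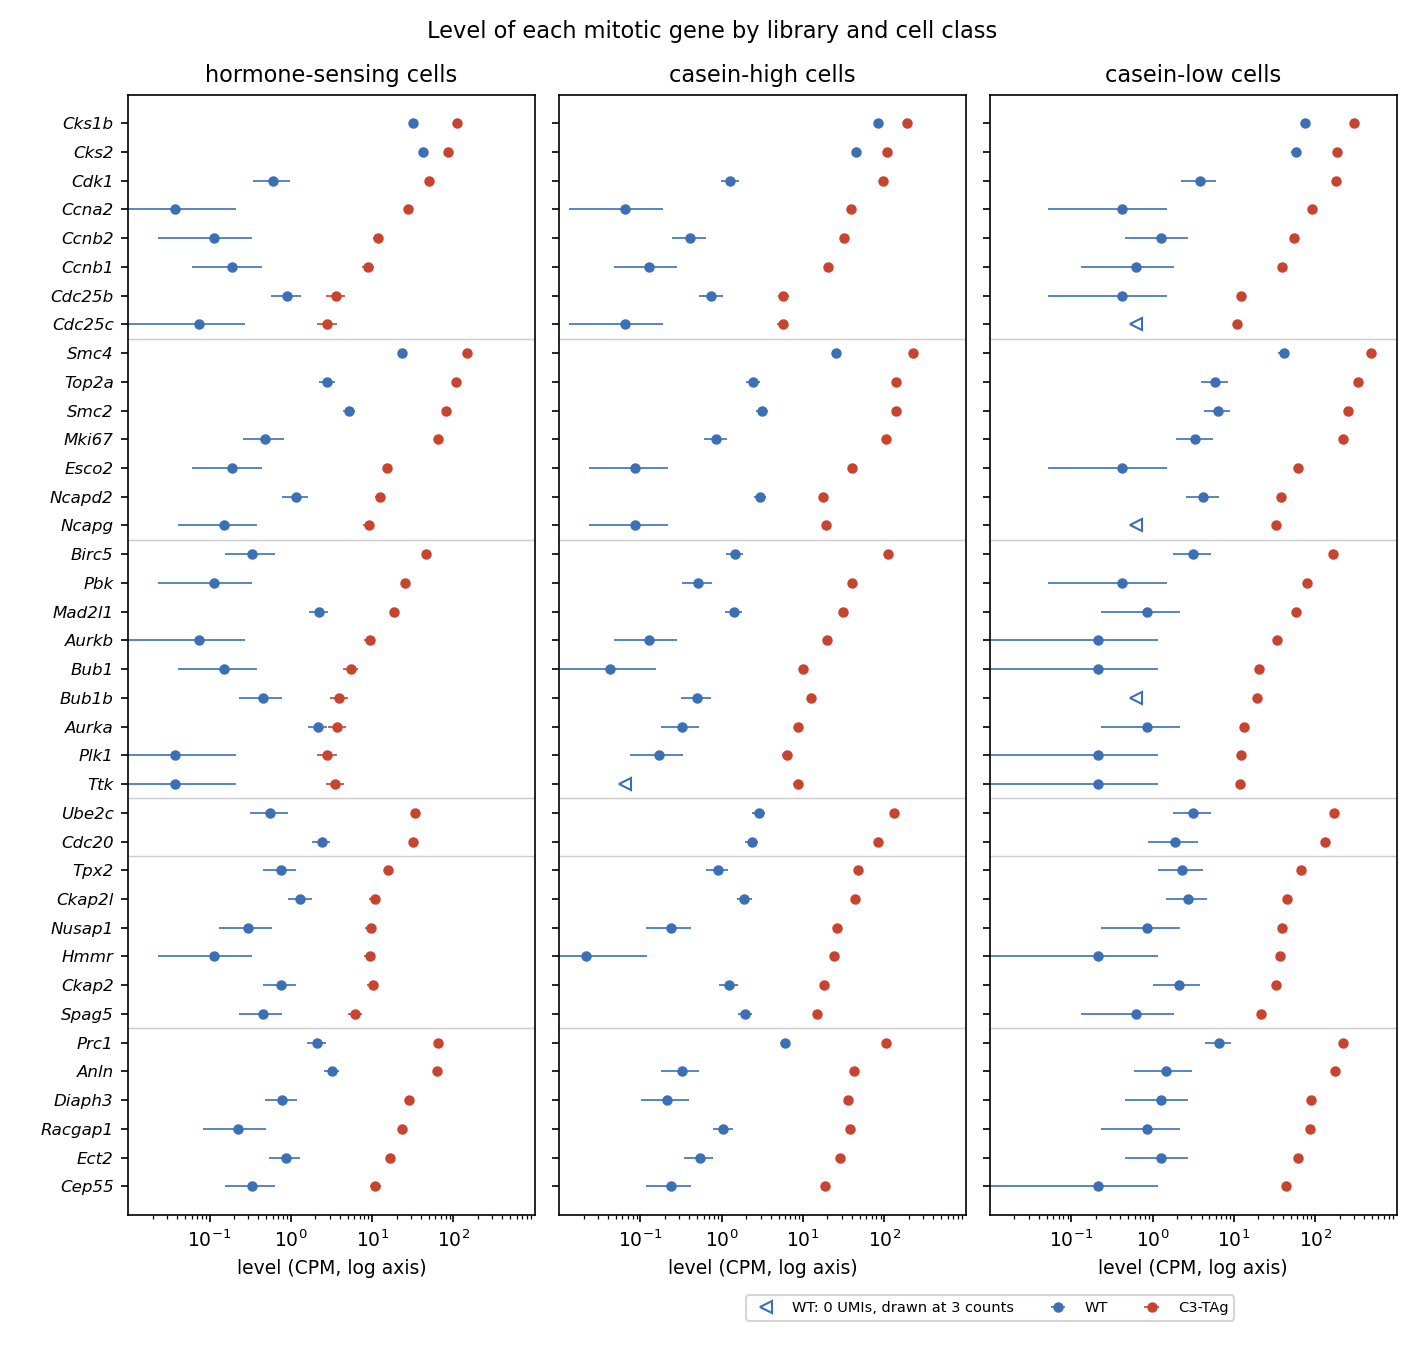
Level of each of the 38 genes in CPM (log axis) in WT (blue) and C3-TAg (red) hormone-sensing, casein-high and casein-low cells, with 95% Poisson intervals and genes grouped by role; open triangles mark WT genes with 0 UMIs, drawn at 3 counts. Red points lie to the right of blue ones for every gene, closest for Aurka in hormone-sensing cells and for Cks1b and Cks2 in all panels.

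Each of the 38 genes exceeded its WT level by at least 1.5-fold in C3-TAg, in all 3 classes. Among all genes with at least 20 UMIs over both libraries, 22.8% were so in hormone-sensing, 31.2% in casein-high and 37.2% in casein-low cells. A difference of at least 10-fold was seen for 30 of the 38 genes in hormone-sensing cells, where 3.14% of all genes reached it. It was seen for 32 genes in casein-high cells (2.38% of all genes) and for 35 in casein-low cells (2.69%). The median log2 ratio of the 38 genes was 5.10, 5.79 and 5.70 in the 3 classes, beside medians of 0.14, 0.32 and 0.35 over all genes. In WT, 21, 16 and 31 of the genes had fewer than 20 UMIs in the respective class, so that they met the count minimum only through C3-TAg, and 0, 1 and 3 had none. The hormone-sensing values depend on 445 C3-TAg cells low in Prlr, described further on. With Prlr required in both libraries the C3-TAg sum was 302.6 CPM in place of 1187 CPM, the median log2 ratio 2.34 in place of 5.10, and the count at 10-fold 11 of 33 measured genes in place of 30 of 38. Raising the class limit to 10 UMIs per 10000 gave a sum of 569.8 CPM.

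CDK1 and its partners showed both extremes of the range. Cdk1, the kinase that triggers mitosis, was at 0.60 CPM in hormone-sensing cells of WT and 50.2 CPM in those of C3-TAg, at 1.28 and 95.4 CPM in casein-high cells, and at 3.79 and 180.9 CPM in casein-low cells. Its level in the C3-TAg class with the least exceeded that in the WT class with the most by over 10-fold. That holds for the whole hormone-sensing class only. With Prlr required, Cdk1 was at 7.08 CPM in C3-TAg hormone-sensing cells, beside the 3.79 CPM of WT casein-low cells. Ccna2, which encodes cyclin A2, had 1 UMI in WT hormone-sensing cells and 471 in C3-TAg, a ratio of 739 (interval 132 to 29240). In casein-high cells it had 3 and 1109 UMIs, a ratio of 606 (interval 207 to 2942), and in casein-low cells 2 and 2912 UMIs, a ratio of 215 (interval 59.4 to 1774). Ccna2 had the highest ratio of the list in hormone-sensing and casein-low cells.

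Ccnb1, which encodes cyclin B1, was at 0.19 and 8.87 CPM in WT and C3-TAg hormone-sensing cells, at 0.13 and 20.1 CPM in casein-high cells, and at 0.63 and 38.7 CPM in casein-low cells. Ccnb2 was higher than Ccnb1 in each C3-TAg class, at 11.8, 31.5 and 54.5 CPM. The phosphatase genes Cdc25b and Cdc25c, whose products activate CDK1, were between 2.82 and 12.4 CPM in the C3-TAg classes. In WT hormone-sensing cells they were at 0.899 and 0.075 CPM. Cks1b and Cks2 were at the opposite end of the range. Cks1b was 3.42-fold higher in C3-TAg hormone-sensing cells (interval 3.15 to 3.71), 2.23-fold in casein-high cells (interval 2.14 to 2.32) and 3.97-fold in casein-low cells (interval 3.57 to 4.42). Cks2 was 2.02-fold (interval 1.87 to 2.18), 2.44-fold (interval 2.31 to 2.58) and 3.21-fold (interval 2.84 to 3.64) higher in the same classes.

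Smc4, among the genes of chromosome structure, was the highest of the 38 in each C3-TAg class, at 145.6, 222.6 and 490.0 CPM in hormone-sensing, casein-high and casein-low cells. Top2a, which encodes topoisomerase II alpha, was at 2.81 CPM in hormone-sensing cells of WT and 106.7 CPM in those of C3-TAg. It was at 2.43 and 139.8 CPM in casein-high cells and at 5.90 and 339.3 CPM in casein-low cells. Mki67, which encodes the proliferation antigen Ki-67, was at 0.49 and 63.8 CPM in hormone-sensing, 0.85 and 105.6 CPM in casein-high, and 3.37 and 221.0 CPM in casein-low cells. Esco2, which encodes an acetyltransferase for sister chromatid cohesion, had 4 UMIs in WT casein-high cells and 1150 in C3-TAg, a log2 ratio of 8.88 (interval 7.52 to 10.76). Ncapd2, a condensin I subunit, had one of the smallest log2 ratios, 2.57 (interval 2.29 to 2.85) in casein-high and 3.17 (interval 2.53 to 3.88) in casein-low cells. Ncapg, from the same complex, had no UMI in WT casein-low cells and 1051 in C3-TAg. Set against a floor of 3 counts in the WT class, it was at least 51.7-fold higher.

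Among the kinase and checkpoint genes Birc5 was the highest in each C3-TAg class and Plk1, Ttk and Aurka were among the lowest. Aurkb, the kinase of the chromosomal passenger complex, was at 0.075 and 9.40 CPM in WT and C3-TAg hormone-sensing cells, at 0.13 and 19.9 CPM in casein-high cells, and at 0.21 and 33.7 CPM in casein-low cells. Birc5, which encodes the survivin subunit of the same complex, had a log2 ratio of 7.07 (interval 6.14 to 8.21) in hormone-sensing cells, with 9 UMIs in WT and 773 in C3-TAg. Pbk, a mitotic kinase gene, had 3 and 434 UMIs there, a log2 ratio of 7.83 (interval 6.27 to 10.11). In casein-low cells Pbk had 2 and 2557 UMIs, a log2 ratio of 7.56 (interval 5.70 to 10.61).

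Plk1, the polo-like kinase of mitotic entry, was at 0.04 and 2.82 CPM in hormone-sensing cells, at 0.17 and 6.33 CPM in casein-high cells, and at 0.21 and 12.1 CPM in casein-low cells. Ttk, the checkpoint kinase also called MPS1, had 248 UMIs in C3-TAg casein-high cells and none in WT, so it was at least 135-fold higher by the same floor. Bub1b had 613 UMIs in C3-TAg casein-low cells and none in WT, so it was at least 30.1-fold higher. Aurka, the kinase of centrosome maturation, had the smallest difference in hormone-sensing cells, at 2.13 CPM (WT) against 3.70 CPM (C3-TAg), which is 0.79 on the log2 scale (interval 0.25 to 1.34). It was at 0.32 and 8.74 CPM in casein-high cells and at 0.84 and 13.2 CPM in casein-low cells, so that its WT level was highest in hormone-sensing cells.

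Of the genes of the anaphase-promoting complex, Cdc20, its mitotic activator, was at 2.40 and 31.4 CPM in WT and C3-TAg hormone-sensing cells, at 2.35 and 83.1 CPM in casein-high cells, and at 1.90 and 131.3 CPM in casein-low cells. Ube2c, its ubiquitin-conjugating enzyme, reached 34.1, 133.2 and 170.9 CPM in C3-TAg and no more than 3.16 CPM in a WT class. All 6 spindle genes were higher in C3-TAg, and Hmmr, a spindle-associated hyaluronan receptor gene, had the highest ratio of the list in casein-high cells. It had 1 UMI there in WT and 696 in C3-TAg, a log2 ratio of 10.16 (interval 7.67 to 15.46), whose width comes from the single WT count.

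In every class all 6 cytokinesis genes passed 10-fold with C3-TAg higher, as did 3.14%, 2.38% and 2.69% of all genes. Of the 6, 2, 3 and 5 had fewer than 20 UMIs in WT hormone-sensing, casein-high and casein-low cells and met the minimum only through C3-TAg. Cep55, a midbody protein gene needed for abscission, was at 0.34 and 10.98 CPM in WT and C3-TAg hormone-sensing cells, at 0.235 and 18.4 CPM in casein-high cells, and at 0.21 and 43.2 CPM in casein-low cells. Its log2 ratio in casein-low cells, 7.68 (interval 5.20 to 12.99), was second to that of Ccna2 and rests on 1 WT UMI. Prc1, which bundles midzone microtubules, was at 2.10, 5.95 and 6.53 CPM in the WT classes, the last 2 being the highest of this group. It reached 64.6, 105.1 and 222.5 CPM in C3-TAg. Anln, which encodes the actin-binding scaffold anillin, was at 3.18 CPM in WT hormone-sensing but 0.32 CPM in WT casein-high cells, and at 62.9 and 42.3 CPM in C3-TAg.

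Within WT, hormone-sensing cells did not simply hold less of every gene. Of the 28 genes with at least 20 UMIs, 13 were at least 1.5-fold lower in hormone-sensing than in all other cells (21.1% of all genes were) and 5 were at least 1.5-fold higher (37.5% of all genes). The higher ones were Anln, 7.47-fold (interval 4.63 to 12.5), Aurka, 5.80-fold (interval 3.398 to 10.3), Diaph3, a formin of the contractile ring, 2.54-fold (interval 1.26 to 5.20), Mad2l1, 1.63-fold (interval 1.13 to 2.34), and Smc2, 1.51-fold (interval 1.20 to 1.89). The lowest were Ube2c, with a log2 ratio of -2.35 (interval -3.23 to -1.58), Birc5, with -2.25 (interval -3.43 to -1.26), and Racgap1, a centralspindlin subunit, with -2.19 (interval -3.70 to -0.98).

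In C3-TAg the order of the classes was nearly uniform. Of the 38 genes, 37 were lowest in hormone-sensing cells, higher in casein-high cells and highest in casein-low cells, with Anln the exception. All 38 were at least 1.5-fold lower in hormone-sensing than in all other cells, as were 24.2% of all genes. The largest gap was that of Ube2c, 4.50-fold (interval 4.13 to 4.90), then Ckap2l and Bub1b, at 4.15-fold and 4.08-fold. The smallest gap was that of Cks2, 1.73-fold (interval 1.64 to 1.83), then Anln and Cks1b, at 1.79-fold and 2.24-fold.

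Casein-low cells of C3-TAg exceeded casein-high cells of the same library in 32 of the 38 genes by at least 1.5-fold, whereas 30.8% of all genes did. The median log2 ratio was 0.90, beside 0.30 over all genes. With TMM scaling, which places equal levels at a log2 ratio of 0.29 here, 20 genes passed, beside 18.6% of all genes. Anln stood apart from the rest, at 42.3 CPM in casein-high and 175.3 CPM in casein-low cells, a log2 ratio of 2.05 (interval 1.96 to 2.14). Diaph3 followed with 1.30 (interval 1.20 to 1.40) and Top2a with 1.28 (interval 1.23 to 1.33). By role, 6 of 6 cytokinesis genes passed with either scaling. Of the chromosome structure genes 7 of 7 passed, and 5 with TMM. Of CDK1 and its partners 8 of 8 passed, and 5 with TMM. Of the kinase and checkpoint genes 7 of 9 passed, and 4 with TMM. Of the anaphase-promoting complex 1 of 2 passed and of the spindle genes 3 of 6, and none of either with TMM. Differences between the roles were not tested. Ckap2l, a spindle protein gene, was level between them, with 0.03 (interval -0.08 to 0.14), and turns negative, at -0.26, with TMM scaling. Ube2c had 0.36 (interval 0.30 to 0.42) and Ttk 0.44 (interval 0.20 to 0.67).

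**Figure D2:**
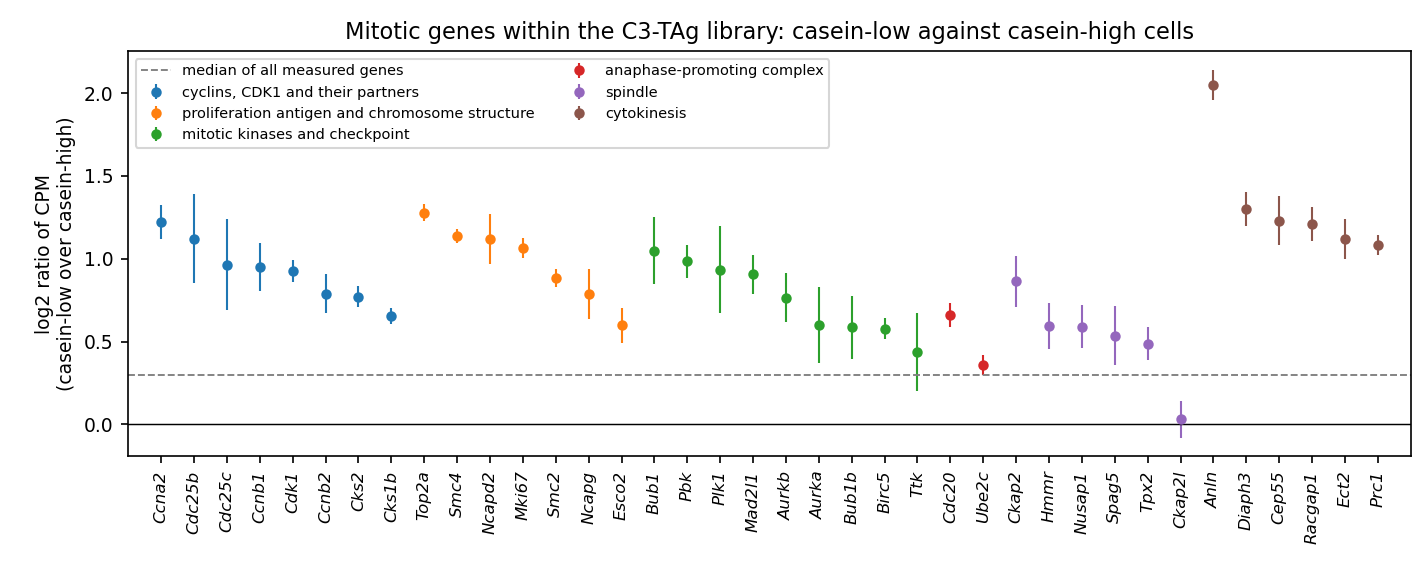
Log2 ratio of the level in casein-low over casein-high cells of the C3-TAg library for each gene, coloured by role, with 95% intervals of counting error; the solid line is 0 and the dashed line the median of all measured genes, 0.30. Anln lies highest at 2.05, Ckap2l lies at 0.03, and every other gene lies above the dashed line.

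The same comparison in WT rests on few UMIs, since 24 genes reached 20. Of these, 11 were at least 1.5-fold higher in casein-low cells (25.9% of all genes) and 3 at least 1.5-fold lower (8.13%). Anln again had the highest log2 ratio, 2.20 (interval 0.67 to 3.58), on 7 and 15 UMIs. Mki67 followed with 1.98 (interval 1.05 to 2.85) and Ccnb2 with 1.64 (interval 0.03 to 3.02). Spag5, an astrin gene of the spindle, had the lowest, -1.62 (interval -3.92 to -0.03), then Cdc25b and Mad2l1 with -0.83 and -0.74, both with intervals that include 0.

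The spread over single cells was examined after each cell was thinned at random to 2000 UMIs, because cells and libraries differ in depth. Shallower cells were left out, 10, 8 and 7 in the WT classes and 7, 0 and 22 in those of C3-TAg. In WT, 79.9% of hormone-sensing, 69.6% of casein-high and 68.5% of casein-low cells had no UMI of the 38 genes. In C3-TAg the shares without one were 54.5%, 13.97% and 5.33%. At least 3 UMIs were found in 0.517% of WT hormone-sensing cells (14 of 2710, interval 0.283 to 0.865), 1.15% of casein-high cells (43 of 3742, interval 0.833 to 1.54) and 1.58% of casein-low cells (9 of 569, interval 0.726 to 2.98). In C3-TAg they were found in 16.4% (332 of 2020, interval 14.8 to 18.1), 53.9% (1343 of 2491, interval 51.9 to 55.9) and 75.6% (2550 of 3374, interval 74.1 to 77.0). Without thinning the WT shares were 14.5%, 38.6% and 23.6% and the C3-TAg shares 39.0%, 92.7% and 94.9%.

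**Figure D3:**
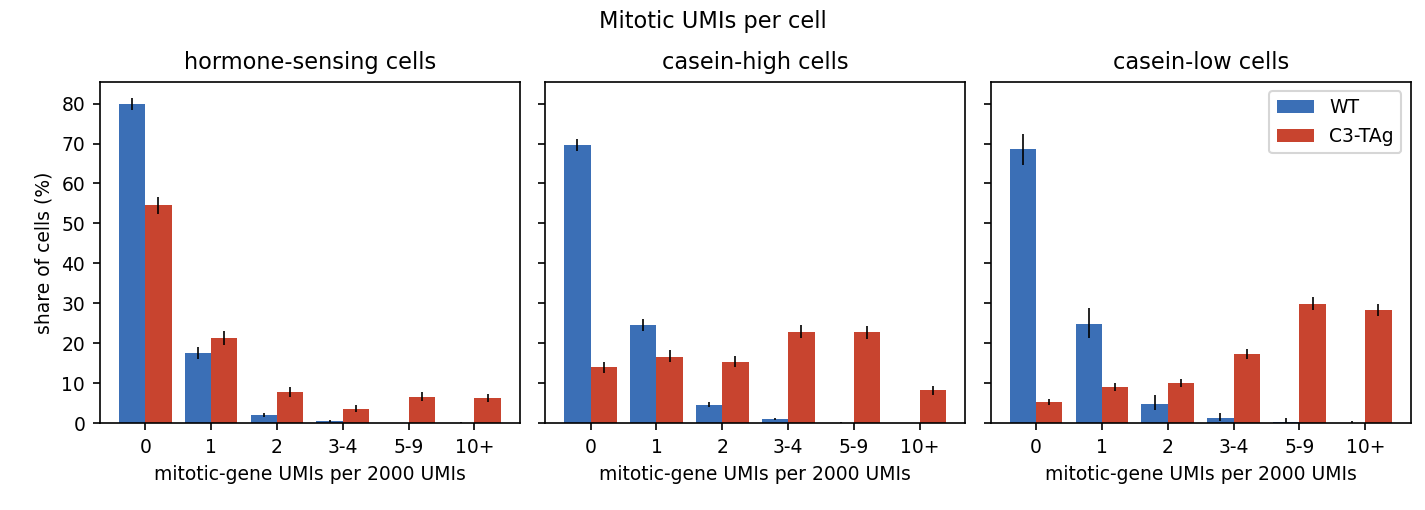
Share of cells (%) by the number of UMIs of the 38 genes in a cell thinned to 2000 UMIs, in WT (blue) and C3-TAg (red), with exact 95% binomial intervals. WT cells pile up at 0 and 1 in all panels, C3-TAg casein-low cells are mostly at 5 or more, and C3-TAg hormone-sensing cells are mostly at 0 or 1 with a long tail; the bins differ in width.

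The shape of this spread differed between the classes of C3-TAg. The variance of the summed UMIs over their mean, which is 1 for random sampling of equal cells, was 1.28, 1.15 and 1.37 in the WT classes. In C3-TAg it was 8.66 in hormone-sensing, 3.63 in casein-high and 5.24 in casein-low cells. C3-TAg hormone-sensing cells thus had the lowest mean of that library, 1.88 UMIs per cell, with the widest relative spread. That spread belongs to the pooled class. When the class was divided by Prlr, as described further on, the value was 3.09 in cells with Prlr and 5.61 in those with less. In the whole C3-TAg hormone-sensing class, 10 or more UMIs were seen in 6.24% of cells (126 cells). There, 5 to 9 were seen in 6.58% and 3 to 4 in 3.61%, beside the 54.5% without any. Divided by Prlr, 10 or more were seen in 0.253% of cells with Prlr (4 cells) and 27.7% of those with less (122 cells). In casein-low cells 28.3% had 10 or more and 29.9% had 5 to 9. Cells at 2 or 3 UMIs, next to the limit used, made up 10.2% of C3-TAg hormone-sensing cells, 28.9% of casein-high and 19.6% of casein-low cells.

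Single genes were found in few cells at this depth. In C3-TAg casein-low cells Smc4 was found in 54.2% of thinned cells, Cks1b in 41.7%, Top2a in 34.7%, Mki67 in 26.2% and Cdk1 in 24.96%. Plk1 was found in 2.16% and Cdc25c in 1.66%. In WT hormone-sensing cells Ccna2, Aurkb and Plk1 were found in 0 of 2710 cells. The exact interval allows a share of up to 0.136% of cells with a UMI at this depth. It sets no limit on cells that express these genes. At full depth they were found in 0.037%, 0.074% and 0.037% of cells. After thinning, Mki67 and Cdk1 were found in 2 WT hormone-sensing cells each, and at full depth in 0.257% and 0.478% of cells. How far a gene was concentrated was measured, among all C3-TAg cells outside the hormone-sensing class, as the share of its UMIs in the 10% of cells with the most UMIs of the other 37 genes. That share was 49.5% for Plk1, 49.4% for Cdc25c, 47.5% for Aurka and 45.1% for Ccnb1. It was 15.7% for Cks1b, 19.8% for Smc2, 21.2% for Smc4 and 21.4% for Mad2l1. These cells pool casein-high and casein-low cells, and the order changed within each. In casein-high cells the highest shares were 50% for Plk1, 48.5% for Hmmr, 47.9% for Nusap1 and 45.7% for Aurka, while Cdc25c had 30.4%. These rest on few UMIs, 30 for Plk1, 97 for Hmmr, 142 for Nusap1, 35 for Aurka and 23 for Cdc25c. Whether the change of order exceeds counting error was not tested. In casein-low cells they were 50% for Bub1b, 47.0% for Aurka, 44.7% for Hmmr, 43.3% for Cdc25c and 42.0% for Plk1. Cks1b had the lowest share in both, 11.9% and 15.3%.

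Milk protein genes were compared over C3-TAg cells outside the hormone-sensing class with different numbers of mitotic UMIs. The share of casein-high cells was 65.9% among the 528 cells without any, 55.4% with 1 to 2 and 34.5% with 3 or more. It was 17.7% among the 1161 cells with 10 or more, which are also part of the stratum with 3 or more. Values are therefore given within each class. In casein-high cells Csn2, which encodes beta-casein, was at 20881, 14952, 10456 and 9556 CPM in these strata, and Lalba, which encodes alpha-lactalbumin, at 1845, 1028, 640.0 and 557.9 CPM. Ltf, the lactoferrin gene, had the opposite order there, at 1117, 1832, 2018 and 2156 CPM. Elf5, the alveolar transcription factor gene, was at 274.0, 272.0, 244.7 and 270.2 CPM, with no steady order.

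In casein-low cells the order of Ltf was the reverse of that in casein-high cells, at 1108, 780.2, 536.6 and 326.6 CPM. Elf5 was at 81.5, 105.7, 71.2 and 62.4 CPM there. Krt17, a stress and basal keratin gene, was higher with more mitotic UMIs in both classes. It was at 4.64, 22.3, 27.4 and 38.3 CPM in casein-high and 209.8, 235.1, 420.7 and 492.1 CPM in casein-low cells. Other basal and myoepithelial markers did not share this order in casein-low cells. Krt14 was at 417.2, 469.5, 399.9 and 391.2 CPM there, but at 276.8, 411.2, 529.0 and 524.3 CPM in casein-high cells. Acta2, Krt5, Myh11 and Trp63 were highest in casein-low cells without mitotic UMIs, at 27.7, 4.61, 6.15 and 2.31 CPM. Oxtr was at most 0.091 CPM there. Median depth before thinning was 8642, 8228, 9785 and 10772 UMIs over both classes, and its part in these values was not tested.

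The C3-TAg hormone-sensing cells that carried mitotic UMIs differed from the rest of their class. The 332 cells with 3 or more had Pgr, the progesterone receptor gene, at 16.0 CPM and Esr1, the estrogen receptor alpha gene, at 7.01 CPM, whereas the 1101 cells without any had 130.7 and 58.4 CPM. Prlr was at 190.3 CPM in the former and 1908 CPM in the latter. Foxa1, a pioneer factor gene of receptor-positive cells, was at 14.9 and 121.7 CPM. Areg, the EGF-family ligand gene, was at 1094 and 4459 CPM. Since Areg, Pgr, Esr1 and Cited1 make up the class rule, their levels against cells outside the class are fixed by it. A cell can enter the class through Areg alone: at full depth 21.7% of the 332 cells had a UMI of Pgr, Esr1 or Cited1, and 94.1% of the 1101.

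Genes of other luminal and basal cells were high in the same 332 cells. Krt17 was at 824.7 CPM against 13.7 CPM in the 1101 cells, Krt14 at 399.9 against 13.7 CPM, Wfdc18 at 2126 against 103.8 CPM, and Aldh1a3, a luminal progenitor gene, at 402.4 against 12.5 CPM. Of the 7 basal and myoepithelial markers, Krt14, Krt17, Krt5, Acta2, Myh11 and Trp63 were detected, the last 4 at 0.56 to 4.48 CPM, and Oxtr was at 0. These cells had a median of 9816 UMIs, against 7659 UMIs for hormone-sensing cells with fewer than 3, and 3.84% of UMIs from mitochondrial genes, against 5.88%. The part of doublets in this difference was not tested beyond removal of called ones.

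Hormone-sensing cells of C3-TAg were therefore divided by Prlr, at 5 UMIs per 10000, a division chosen after the values above were seen. The 1582 cells at or above it had Pgr at 134.9 CPM, Esr1 at 59.5 CPM and Areg at 4328 CPM, and their summed mitotic level was 302.6 CPM (interval 293.0 to 312.3). The 445 cells below it had Pgr at 19.5 CPM, Esr1 at 8.98 CPM and Areg at 1497 CPM, and their summed level was 3685 CPM (interval 3629 to 3742). The latter exceeded the 3068 CPM of all C3-TAg cells outside the class. These 445 cells were 22.0% of the class and held 81.2% of its UMIs of the 38 genes. In WT, 2662 of 2720 hormone-sensing cells passed, at 128.4 CPM. A dividing hormone-sensing cell that had lost Prlr would fall below this limit, so the division does not show what such cells are.

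With the Prlr requirement, at least 3 UMIs at 2000 UMIs were found in 1.77% of C3-TAg cells (28 of 1579, interval 1.18 to 2.55) and 0.527% of WT cells (14 of 2656, interval 0.288 to 0.883). The C3-TAg cells below the Prlr limit had 68.9% (304 of 441, interval 64.4 to 73.2), and all C3-TAg cells outside the class 66.4%. A second random thinning gave 1.90% of C3-TAg cells (30 cells) and 0.527% of WT cells. Without thinning the shares were 25.6% in C3-TAg and 14.2% in WT, at medians of 7622 and 9434.5 UMIs per cell. Of the 28 C3-TAg cells, 4 had 10 or more UMIs. Their Pgr, Esr1 and Foxa1 levels were nearer to those of the cells without mitotic UMIs than those in the 445 cells below the limit, with Pgr at 87.0 against 133.9 CPM, Esr1 at 41.9 against 60.5 CPM and Foxa1 at 83.8 against 124.9 CPM. Other genes were farther from the cells without mitotic UMIs. Areg was at 1592 against 4488 CPM, near the 1497 CPM of the 445 cells. Wnt4, a hormone-sensing marker outside the class rule, was at 112.8 against 222.2 CPM, nearer to the 44.5 CPM of the 445 cells. Cited1, at 486.5 against 864.2 CPM, lay about midway to the 110.7 CPM of the 445 cells. Krt14 was at 257.8 against 7.09 CPM and found in 9 of the 28 cells (32.1%) against 5.20%, and Elf5 was found in 4 (14.3%) against 1.35%. Krt17 was at 154.7 against 11.2 CPM, Wfdc18 at 438.2 against 66.1 CPM and Aldh1a3 at 48.3 against 6.23 CPM. Kit, Trf and Spp1 were also higher in the 28 cells. Milk genes were lower, with Csn2 at 74.1 against 272.6 CPM, Csn1s1 at 54.8 against 128.4 CPM and Csn3 at 38.7 against 68.2 CPM. Lalba was at 6.44 against 36.7 CPM and Ltf at 19.3 against 23.5 CPM. The basal and myoepithelial markers Krt5, Acta2, Myh11, Oxtr and Trp63 had no UMI in the 28 cells. The part of doublets in these 28 cells was not tested, and their median depth was 8485 UMIs against 7589 UMIs.

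Compared with WT cells under the same requirement, 33 of the 38 genes had enough UMIs, and 30 of these passed 1.5-fold with C3-TAg higher, beside 12.9% of all genes. In WT, 22 of the 38 genes had fewer than 20 UMIs here. A 10-fold difference was seen for 11 genes, beside 0.480% of all genes, and all 11 had 1 to 16 UMIs in WT, so that they met the minimum only through C3-TAg. The median log2 ratio was 2.34, beside 0.07 over all genes. Ccna2 had 1 UMI in WT and 46 in C3-TAg, a log2 ratio of 6.57 (interval 4.02 to 11.91), Aurkb 4.44 (interval 2.41 to 7.58) on 2 and 21 UMIs, and Ccnb2 4.42 (interval 2.74 to 6.77) on 3 and 31. Mki67 was at 0.50 and 7.32 CPM and Top2a at 2.84 and 11.2 CPM. Aurka, at 2.11 and 1.99 CPM, had a log2 ratio of -0.09 (interval -0.83 to 0.62). Cdc25b had 0.46 (interval -0.55 to 1.44) and Cks2 0.46 (interval 0.32 to 0.59). For Aurka and Cdc25b the interval includes 0, so that no difference between the libraries could be seen at this depth.

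RNA released from other cells into the suspension gives UMIs in droplets of cells that do not make a transcript. As a measure of it, 12 genes of receptor-negative luminal cells (Elf5, Kit, Aldh1a3, Csn2, Csn1s1, Csn3, Lalba, Ltf, Trf, Wfdc18, Krt14 and Spp1) were compared with the 38 genes, each as a percentage of its level in the other cells of C3-TAg. Over all C3-TAg hormone-sensing cells the 38 genes were at 22.2% to 57.7% (median 34.9%), and the 12 genes at 5.66% to 64.7% (median 6.90%), the high ones being Aldh1a3, Kit, Krt14 and Wfdc18. In cells with Prlr the 12 genes fell in a narrow band, from 2.09% for Ltf to 5.89% for Lalba, with a median of 2.95%. The 38 genes there ranged from 2.49% for Esco2 to 38.7% for Cks2, with a median of 6.65%. Of them, 24 were above the highest of the 12 genes, and for 15 the whole interval was. In WT cells with Prlr, set against the other WT cells, the 12 genes were at 1.41% to 22.6% (median 1.85%), Krt14 being the highest. The 38 genes were at 18.8% to 730.5% there (median 97.7%). The source of the UMIs above the band in C3-TAg was not tested.

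**Figure D4:**
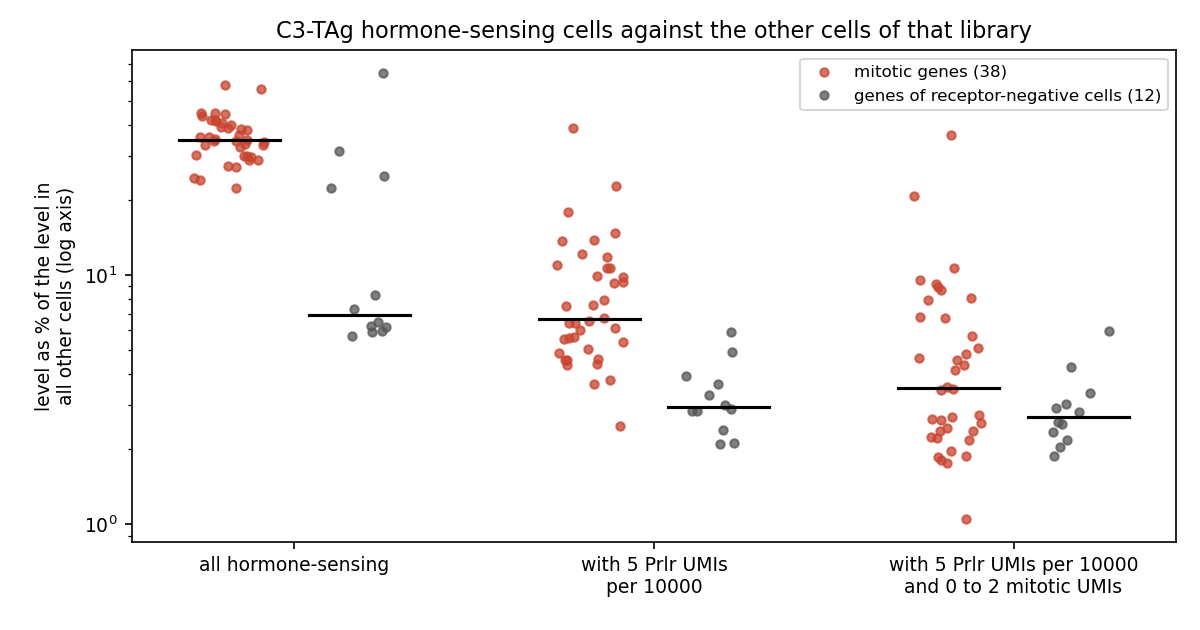
Level of each gene in C3-TAg hormone-sensing cells as a percentage of its level in all other C3-TAg cells (log axis), for the 38 mitotic genes (red) and 12 genes of receptor-negative cells (grey), in the whole class, in cells with Prlr, and in cells with Prlr and 0 to 2 mitotic UMIs; bars are medians. The red median goes from 34.9% through 6.65% to 3.51% and the grey one from 6.90% through 2.95% to 2.69%.

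In C3-TAg cells with Prlr the percentages were highest for genes of several roles. Cks2 was at 38.7%, Cks1b at 22.7%, Aurka at 17.9%, Spag5 at 14.8% and Cdc25b at 13.8%. Mki67, at 4.39%, Top2a, at 4.57%, Cdk1, at 5.03%, and Ccna2, at 5.53%, lay inside the band of the 12 genes. When cells with 3 or more mitotic UMIs were also left out, the median of the 38 genes was 3.51%, against 2.69% for the 12 genes, and 11 genes were above the highest of these, 6 of them with their whole interval. That step removes cells by their count of the same genes and so lowers the 38 genes by construction. The cells it removed were 28 of 1579 and held 21.8% of the UMIs of the 38 genes at 2000 UMIs. In the 1551 cells left, Mki67 was at 1.81%, Ccna2 at 1.97%, Top2a at 2.36% and Cdk1 at 3.54%, none of them above the range of the 12 genes, 1.87% to 5.98%. Because cells with more of these UMIs had been removed, this does not show whether dividing cells remain among the 1551.

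Other genes of the cell cycle, listed apart from the 38, differed in the same direction. Of 42 further mitotic genes, among them kinesins, centromere and kinetochore genes, 39 passed 1.5-fold with the higher level in C3-TAg in hormone-sensing cells, 41 in casein-high and 41 in casein-low cells, where 22.8%, 31.2% and 37.2% of all genes did. Cenpa, the centromeric histone gene, was at 3.61 CPM in casein-high cells of WT and 72.5 CPM in those of C3-TAg. Fzr1, which encodes the G1 activator of the anaphase-promoting complex, was at 21.1 and 22.1 CPM there and did not reach the limit in any class. All 15 S phase genes were at least 1.5-fold higher in each class, beside the same shares of all genes. Pclaf, a PCNA-associated factor gene, was at 0.60 and 140.3 CPM in hormone-sensing cells.

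The regulators of these promoters were divided. Of 13 such genes, 9, 10 and 10 passed 1.5-fold with the higher level in C3-TAg in hormone-sensing, casein-high and casein-low cells, beside 22.8%, 31.2% and 37.2% of all genes. Foxm1 was at 0.84 and 30.2 CPM in WT and C3-TAg casein-low cells, Mybl2, the B-MYB gene, at 0.63 and 23.3 CPM, and E2f1 at 4.21 and 45.3 CPM. Lin37, a MuvB subunit gene, was at 24.0 and 21.2 CPM, E2f4 at 39.4 and 50.3 CPM, and Rbl2, which encodes the Rb family protein p130, at 8.003 and 6.52 CPM. Within C3-TAg, Foxm1 was 1.61 higher on the log2 scale in casein-low than in casein-high cells, and Lin37 differed by -0.12.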

How the data were processed

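The deposited values are raw UMI counts per gene and barcode, which the authors made with Cell Ranger 3.1.0 against mm10, per the submitters' processing notes. Barcodes with under 500 genes, under 1000 UMIs or over 10% mitochondrial UMIs were left out, and doublets called by Scrublet (scanpy 1.11.5, Python 3.11.15, random seed 0) were removed: 360 in WT and 544 in C3-TAg. Counts were summed per library and class and given as CPM with exact Poisson intervals. Ratios have exact conditional intervals; genes with at least 20 UMIs over both sides were used, against a floor of 3 counts, and were called at 1.5-fold. Shares of cells have exact Clopper-Pearson intervals. PCR copies were collapsed by UMI, and all intervals cover counting error only. Alternatives were TMM (edgeR 4.0.16, R 4.3.3), other limits and depths. The ratios and their intervals were checked on simulated Poisson counts, and the other steps were not checked in this way. Coordinates are those of GRCm38. The 38 genes and all lists were chosen with earlier results of these data known. Values in each class are given for 11 genes fixed by name and for the 3 highest and 3 lowest ratios of each comparison; other genes named were chosen after their values were seen.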

Additional observations from a re-analysis of the deposited data

Results flagged for a closer look

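Signal of the 38 genes was also present in barcodes that entered no comparison. The 1117 C3-TAg barcodes left out by the filters, with a median of 1601 UMIs and 27.1% mitochondrial UMIs, held 1516.8 CPM, against 128.2 CPM in the 1587 such barcodes of WT. The 544 C3-TAg barcodes called doublets held 2484.6 CPM, and 57.0% of them met the hormone-sensing rule, against 171.2 CPM and 82.2% in the 360 of WT.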

How the results depend on the processing

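No paired analysis was possible because each genotype is 1 library. The depth limits the WT ratios, many of which rest on under 20 UMIs. Summed levels (CPM) and shares of cells with 3 or more UMIs (%) are given for hormone-sensing, casein-high and casein-low cells in that order; the cause of a shift was not tested. Without the barcode filter the C3-TAg sums were 1159.7, 2065.0 and 3896.8. With called doublets kept they were 1410.7, 2164.3 and 3915.8, the WT hormone-sensing sum 137.9 and the C3-TAg hormone-sensing share 21.5%. TMM gave WT sums of 138.1, 214.5 and 251.5 and C3-TAg sums of 1114.8, 1853.3 and 3628.0, and 20 genes higher in C3-TAg casein-low than casein-high cells. A mean over cells gave C3-TAg sums of 952.5, 1924.8 and 3511.3. A hormone-sensing limit of 10 UMIs gave 569.8 and 6.84% for C3-TAg hormone-sensing, 3917.1 for C3-TAg casein-low and 209.8 for WT casein-low cells. A casein limit of 1% gave C3-TAg sums of 1965.9 and 3757.6 and shares of 51.65% and 74.0% in casein-high and casein-low cells. At 5000 UMIs the shares were 3.61%, 8.47% and 12.2% in WT and 26.4%, 82.6% and 94.9% in C3-TAg. Without thinning they were 14.5%, 38.6% and 23.6%, and 39.0%, 92.7% and 94.9%. From 2 UMIs they were 2.51%, 5.83% and 6.50%, and 24.2%, 69.3% and 85.7%. From 5 UMIs they were 0.0369%, 0.107% and 0.351%, and 12.8%, 31.0% and 58.3%.

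Changes to the hormone-sensing rule and the second thinning were chosen after seeing the data. Without Areg, the C3-TAg hormone-sensing sum was 355.8, its share 3.48% and the median log2 ratio to WT 2.59, while C3-TAg casein-low cells had 3850.6 and 72.6%. With Prlr required, these hormone-sensing values were 302.6, 1.77% and 2.34. The log2 ratio of Aurka reversed, from 0.79 to -0.039 without Areg and -0.089 with Prlr. A minimum of 1 UMI per gene, leaving out stromal and immune cells and a second thinning moved no summary value beyond its limit. Of 1368 values of single genes, 182 moved, 2 reversed and 1184 did neither.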
